A study of Mus musculus with 3 samples.

Results

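Some barcodes of the 3 single-cell RNA libraries carried RNA that came mostly from the mitochondrial genome. They were chosen by 1 measured value: over 50% of a barcode's unique molecular identifiers (UMIs, counts of single captured RNA molecules) came from genes whose symbol starts with mt-, with no other limit. Of 14914 barcodes, 4715 met it. They are called mitochondrial barcodes here. They were set against 9048 reference barcodes of the same libraries with at most 10% mt- UMIs, and 1151 barcodes lay between. The share of mt- UMIs that chose the barcodes is given as a description and supports nothing below, and tests used the other genes alone.

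The libraries came from bone marrow cells of C57BL/6 mice aged 6 to 8 weeks, sorted as marrow mesenchymal stromal cells with stains for CD31, CD45, Ter119, CD51 and PDGFRα after collagenase digestion and red cell lysis. WT mice were compared with 2 transgenic lines of connexin 43, the main gap junction protein of bone. R76W blocks gap junctions in osteocytes, and D130, read here as the deletion mutant of the design text, blocks both gap junctions and hemichannels. In published lines the transgenes are driven by a Dmp1 promoter, which is active mainly in osteocytes. Each genotype had 1 library, with 7352 barcodes (WT), 3317 (R76W) and 4245 (D130) and totals of 29558251 to 81837778 UMIs. The number of animals per library is not stated. No test between genotypes was possible, and all intervals are exact 95% intervals that cover counting error only. Barcodes that held the same sequence in a pair of libraries numbered 4 for WT and R76W, 6 for WT and D130 and 8 for R76W and D130, and 1 of these 6 and 5 of these 8 were mitochondrial in both libraries. The reference barcodes did not match the sort label throughout: by their marker genes 30.4%, 61.6% and 46.5% of them were LepR+ stromal in WT, R76W and D130, and 59.5%, 23.1% and 29.9% were erythroid. Neutrophil reference barcodes made up 1.55%, 3.19% and 5.35%.

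The mitochondrial genome is small and circular and encodes subunits of the respiratory chain together with its own ribosomal and transfer RNAs. Its messenger RNAs are made and kept inside mitochondria, within membranes of their own, whereas nuclear messenger RNA lies in the nucleus and cytosol. In droplet libraries a high mitochondrial share is widely used to filter out damaged cells, and droplets also take up free RNA shed by other cells. Marrow stroma holds LepR+ cells, which support blood stem cells through Cxcl12, and osteoblasts, which make the collagen and osteocalcin of bone. Erythroid and myeloid cells are the main blood cells left beside them.

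The mitochondrial barcodes made up 24.6% of barcodes in WT (interval 23.6 to 25.6), 35% in R76W (33.4 to 36.7) and 41.2% in D130 (39.7 to 42.7). The 3 intervals do not overlap, with 1 library per genotype. They held 42.3%, 56.7% and 57.0% of all mt- UMIs of WT, R76W and D130 but 2.29%, 5.04% and 5.20% of all UMIs. Within them the median mt- share was 91.3%, 94.3% and 95.1% in the same order, and few barcodes lay near the limit of 50%. Between 45 and 50% there were 55, 23 and 11 barcodes, and between 50 and 55% there were 60, 16 and 26. Barcodes over 95% mt- made up 21.3% of the mitochondrial barcodes in WT, 44.6% in R76W and 50.9% in D130.

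**Figure D1:**
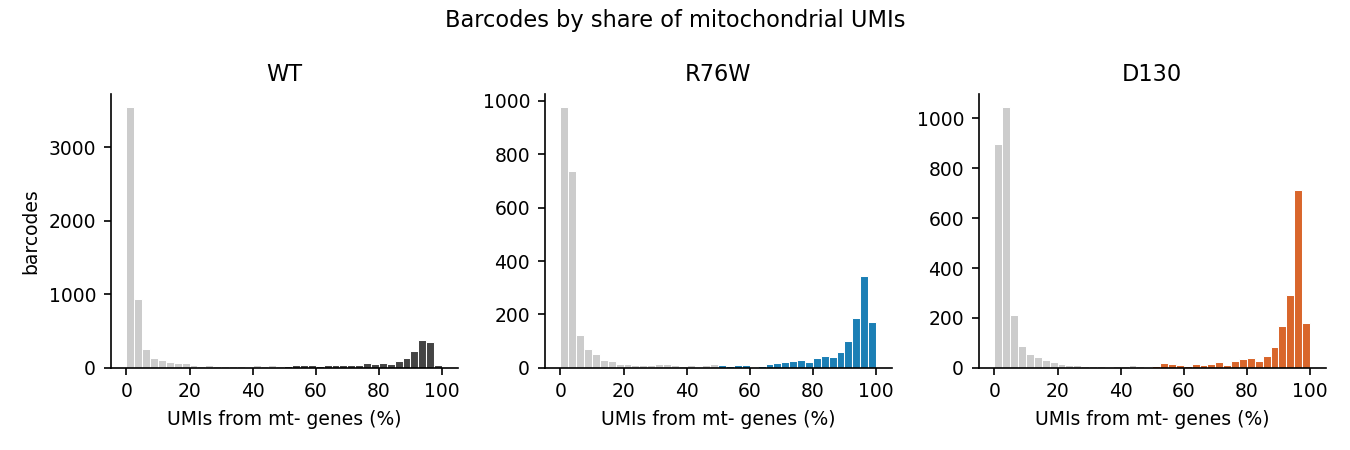
Barcodes (y axis, count) by share of UMIs from mt- genes (x axis, percent) in each library, with mitochondrial barcodes in colour and the others in grey. Each library has a peak near 0 and another above 90%, with few barcodes near 50%.

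The mitochondrial barcodes had more mt- UMIs than the reference and far fewer of all others. The median of mt- UMIs was 764 in WT, 1005 in R76W and 1118 in D130, against 222, 208 and 311 in the reference. The median of UMIs from all other genes was 74, 56 and 61 against 8636, 8665 and 11210. The medians of genes with a UMI were 50, 41 and 47. Each deposited barcode held at least 500 UMIs, so that a barcode with few other UMIs could enter only with many mt- UMIs. Toward the highest mt- shares both quantities moved, in opposite directions. From barcodes of 50 to 75% to barcodes over 95%, the median of mt- UMIs went from 649 to 1059 in WT, from 929 to 1201.5 in R76W and from 726.5 to 1461 in D130. Over the same bins the median of other UMIs went from 385 to 40, from 472 to 36 and from 381 to 48.

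**Figure D2:**
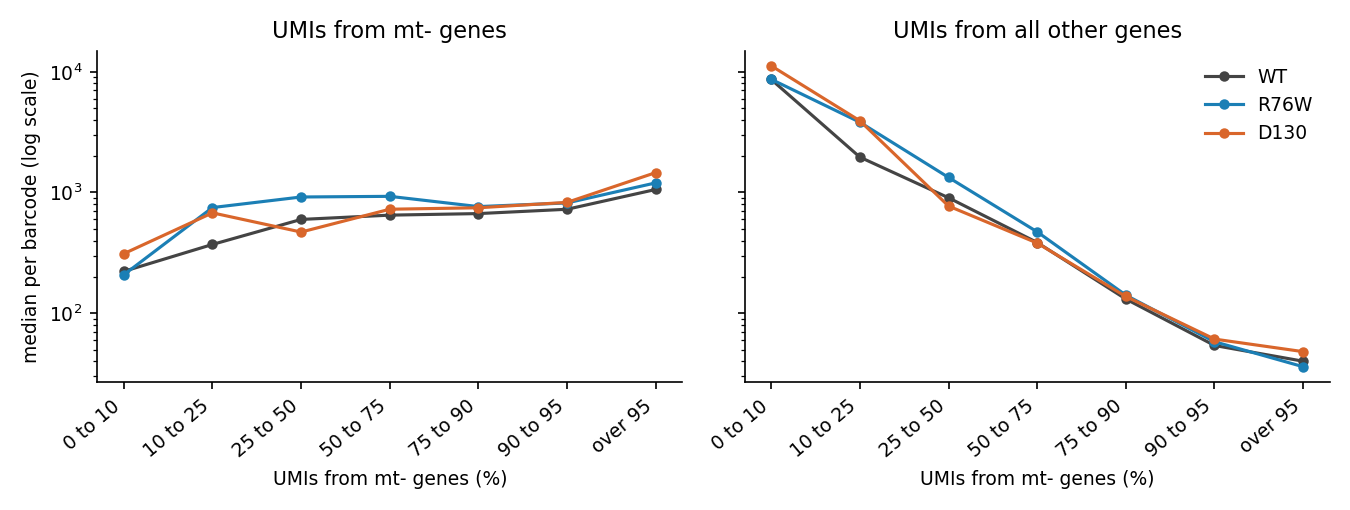
Median UMIs per barcode (y axis, log scale) from mt- genes and from all other genes, in bins of the mt- share (x axis, percent), by library. Non-mitochondrial UMIs fell from 8636 to 11210 in the first bin to 36 to 48 in the last, while mt- UMIs stayed between 208 and 1461.

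The 13 mt- genes of the files, all coding for respiratory chain subunits, were divided in much the same way in mitochondrial and reference barcodes, and mt-Atp6 was the highest in both. mt-Atp6, a subunit of ATP synthase, took 23.5%, 25.6% and 24.1% of mt- UMIs in the mitochondrial barcodes of WT, R76W and D130 and 20.4%, 22.6% and 21.0% in the reference. mt-Co1, the catalytic subunit of cytochrome oxidase, took 14.7%, 12.5% and 12.9% against 17.6%, 14.5% and 14.8%. mt-Atp6 was thus higher and mt-Co1 lower in all 3 libraries. Of the 13, 6 had a higher share in all 3 libraries, 6 a lower share in all 3, and mt-Co3 went both ways. These are descriptions, since the same UMIs chose the barcodes.

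What the mitochondrial barcodes held beside mt- RNA was led by 1 gene. Gm42418, a non-coding gene at chromosome 17, 39846958 to 39848788, on the plus strand of GRCm38 (mm10), lies within the annotated ribosomal RNA gene CT010467.1 (39846353 to 39848827, minus strand). The first 1244 bases of its transcript are the reverse complement of that gene's transcript at 100% identity. AY036118 (39847113 to 39848035, minus strand) matches the same transcript over all of its 923 bases. AY036118 and the ribosomal RNA gene lie on the same strand, and their reads cannot be told apart where they overlap. Gm42418 lies on the opposite strand, so that there its reads differ from those of the ribosomal RNA gene by strand alone. The strand setting of the counting is not given in the sources used here. Gm42418 took 25.3%, 27.2% and 19.8% of non-mitochondrial UMIs in WT, R76W and D130. Its level was 252730, 272090 and 197540 UMIs per 1000000 non-mitochondrial UMIs (CPM), against 13322, 28072 and 15115 in the reference, and the groups did not overlap. The log2 difference was 4.07 ± 0.86 (SE, adjusted p = 0.000153, edgeR quasi-likelihood test with library as a block and Benjamini-Hochberg adjustment). Per barcode, however, Gm42418 had fewer UMIs in mitochondrial barcodes, with means of 39.4, 37.1 and 22.9 UMIs, than among reference barcodes called LepR+ stromal, with means of 198, 391 and 236.

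One further gene carried sequence close to mitochondrial RNA. Gm20594, annotated as a protein-coding gene of 449 bases at chromosome 6, 79817916 to 79818364, had 19, 16 and 29 UMIs in the mitochondrial barcodes of WT, R76W and D130 and 6, 3 and 3 in the more numerous reference barcodes. Its transcript matched mt-Rnr2, the large ribosomal RNA of mitochondria, at 88.5% identity over 435 aligned bases. mt-Rnr2 is not among the 13 mt- genes counted in the files. The first 60 aligned bases of both transcripts are shown from GENCODE M21 because they show how near a nuclear gene comes to a mitochondrial one. Capitals mark the 8 bases that differ, and the stretch starts at base 1 of Gm20594 and at base 645 of mt-Rnr2.
Gm20594: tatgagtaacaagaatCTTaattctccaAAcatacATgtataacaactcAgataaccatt
mt-Rnr2: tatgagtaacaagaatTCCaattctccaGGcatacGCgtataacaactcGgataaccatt
Of 19 genes that led in the mitochondrial barcodes, Gm42418, AY036118 and Gm20594 were the 3 whose transcripts matched mitochondrial RNA or CT010467.1 over at least 50 bases at 80% identity or more. Introns were not compared.

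The cell class was read first from the marker genes named in the rule, by the number of their UMIs in each barcode. Free RNA adds UMIs per droplet whatever the cell holds, so the background was taken from reference barcodes of a class that should lack the gene, without thinning. That background is not free RNA alone, since barcodes holding more than 1 cell were not set apart. It was also uneven. In WT erythroid reference barcodes Cxcl12 had a mean of 5.65 UMIs and a median of 0, and 21.3% held any. The osteocalcin gene Bglap (chromosome 3, 88383501 to 88384464), a protein of the bone matrix made by mature osteoblasts, stood above that background. At least 5 Bglap UMIs were found in 7.20% of mitochondrial barcodes in WT (interval 6.05 to 8.49), 10.2% in R76W (8.56 to 12.1) and 1.72% in D130 (1.16 to 2.44). Among reference barcodes called LepR+ stromal the shares were 0.739%, 0.595% and 0.192%, and among those called erythroid they were 0.927%, 0.454% and 0.745%. The intervals of mitochondrial and LepR+ stromal barcodes did not overlap in any library. Those of mitochondrial and erythroid barcodes did not overlap in WT and R76W but did in D130 (0.243 to 1.73 for erythroid). The 76 WT reference barcodes called neutrophil were an exception, with 14.5% (7.45 to 24.4). Median depths of non-mitochondrial UMIs were 74, 56 and 61 in mitochondrial barcodes, 5730, 7724 and 8199 in LepR+ stromal and 21920.5, 26726 and 32299 in erythroid reference barcodes.

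The other markers of the rule reached 5 UMIs in few mitochondrial barcodes. Hbb-bs, a beta globin of red cells, reached 5 UMIs in 2.16%, 0.258% and 0.572% of mitochondrial barcodes in WT, R76W and D130. In LepR+ stromal reference barcodes, which should lack it, the shares were 5.31%, 3.74% and 3.26%, higher in each library. Cxcl12 reached 5 UMIs in 0.388%, 0.258% and 1.37% of mitochondrial barcodes, against 6.38%, 2.72% and 5.07% in erythroid reference barcodes. S100a8, a calcium-binding protein of neutrophils, reached it in 1 mitochondrial barcode of WT, 0 of 1161 in R76W (exact upper limit 0.317%) and 1 of D130. Shares of Hbb-bs and Cxcl12 thus lay below those of classes that should lack the gene, in barcodes of far greater depth. They are not read as expression, and the comparison cannot show that expression was absent. The part of free RNA in these shares was not tested. Col1a1, the chain of bone collagen, reached 5 UMIs in 3.77%, 5.17% and 1.94%, against 0.652%, 0.907% and 2.24% in erythroid and 6.72%, 16.2% and 12.9% in LepR+ stromal reference barcodes. It exceeded the erythroid level in WT and R76W, not in D130, and the LepR+ stromal level in none.

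**Figure D3:**
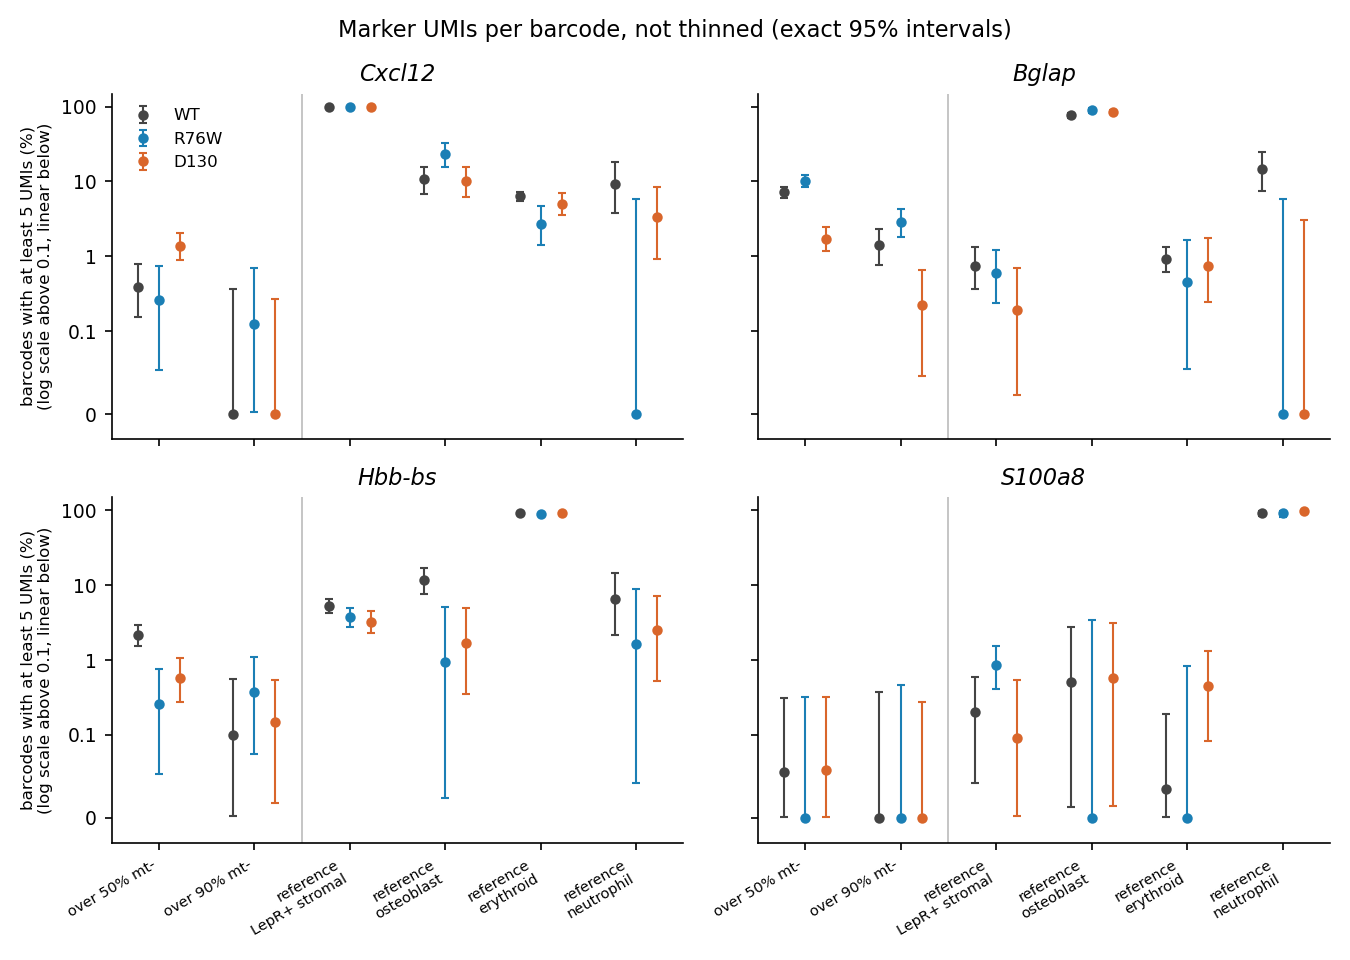
Share of barcodes with at least 5 UMIs of each marker (y axis, percent, log scale above 0.1 and linear below) in mitochondrial barcodes and in reference barcodes by called class, for the 3 libraries, with exact 95% intervals. Bglap of mitochondrial barcodes (7.20%, 10.2% and 1.72%) lies above LepR+ stromal barcodes, while Cxcl12 and Hbb-bs lie below the classes that should lack them.

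The osteoblast marker UMIs sat in few barcodes, and Bglap UMIs per barcode were lower at higher mt- shares. The richest barcodes that together held 50% of all osteoblast marker UMIs numbered 62 of 1805 in WT, 42 of 1161 in R76W and 96 of 1749 in D130. Barcodes with at least 10% of their non-mitochondrial UMIs from the 11 osteoblast markers numbered 65, 103 and 10, against 18, 5 and 11 for the 13 erythroid markers, 0, 1 and 4 for the 12 LepR+ stromal markers and 1, 4 and 2 for the 10 neutrophil markers. Among barcodes over 90% mt-, at least 5 Bglap UMIs were found in 1.40%, 2.87% and 0.222%. Mean Bglap UMIs per barcode went from 3.43 at 50 to 75% mt- to 0.148 over 95% in WT, from 7.50 to 0.201 in R76W and from 1.33 to 0.140 in D130. The last values lie below the mean of LepR+ stromal reference barcodes in each library (0.341, 0.272 and 0.227). Non-mitochondrial UMIs per barcode were also fewer at higher shares, and as a level the 11 osteoblast markers did not go 1 way. From 50 to 75% over 75 to 90% and 90 to 95% to over 95% mt- they summed to 16549, 21639, 12260 and 8050 CPM in WT. The sums in the same bins were 25874, 45601, 32108 and 14556 CPM in R76W and 9376, 14438, 11767 and 12032 CPM in D130. The level was highest at 75 to 90% mt- in each library, and over 95% it was lower than at 50 to 75% in WT and R76W and higher in D130.

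The osteoblast genes did not move as 1 block. Per barcode, Bglap and its copy Bglap2 were 3.38 and 3.17 times the mean of erythroid reference barcodes in WT, 5.03 and 5.16 times in R76W, and 0.721 and 0.787 times in D130. Ibsp, bone sialoprotein, was at 0.0382, 0.103 and 0.0911 times, and LepR+ stromal reference barcodes held means of 37.3, 53.3 and 41.6 Ibsp UMIs, so that Ibsp does not separate the 2 classes here. Dmp1, a matrix protein of osteocytes, had 5, 1 and 4 UMIs over all mitochondrial barcodes, and Sp7, an osteoblast transcription factor, had 13, 4 and 13. In mitochondrial barcodes with at least 10% osteoblast marker UMIs, the ratio of Bglap to Col1a1 UMIs was 2.97 in WT, 2.45 in R76W and 1.31 in D130. In reference barcodes called osteoblast it was 0.758, 0.806 and 0.30. The ratio was higher in mitochondrial barcodes in each library, with a choice of barcodes that itself counts both genes. Bglap, Bglap2 and Bglap3 are near-identical copies, and reads could be split among them.

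With each barcode thinned at random to 100 non-mitochondrial UMIs, a class was called where a marker list had at least 3 UMIs and at least 2 times the next list. Depth allowed this for 746 mitochondrial barcodes of WT, 365 of R76W and 463 of D130, and the 1059, 796 and 1286 shallower ones were left out. Osteoblast was the class called most often in each library, with 19.3%, 32.6% and 15.3% against 3.49%, 5.86% and 6.78% of reference barcodes. Erythroid followed in WT with 10.3%, against 43.0% of reference barcodes, and stood at 2.74% in R76W and 7.56% in D130, against 12.1% and 15.1%. LepR+ stromal, the class the sort aimed at, took 2.28%, 4.38% and 9.07%, against 22.9%, 45.7% and 34.8%. Neutrophil took 0.402%, 0.274% and 0.864%. Most mitochondrial barcodes, 67.6%, 59.2% and 66.7%, received no class.

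**Figure D4:**
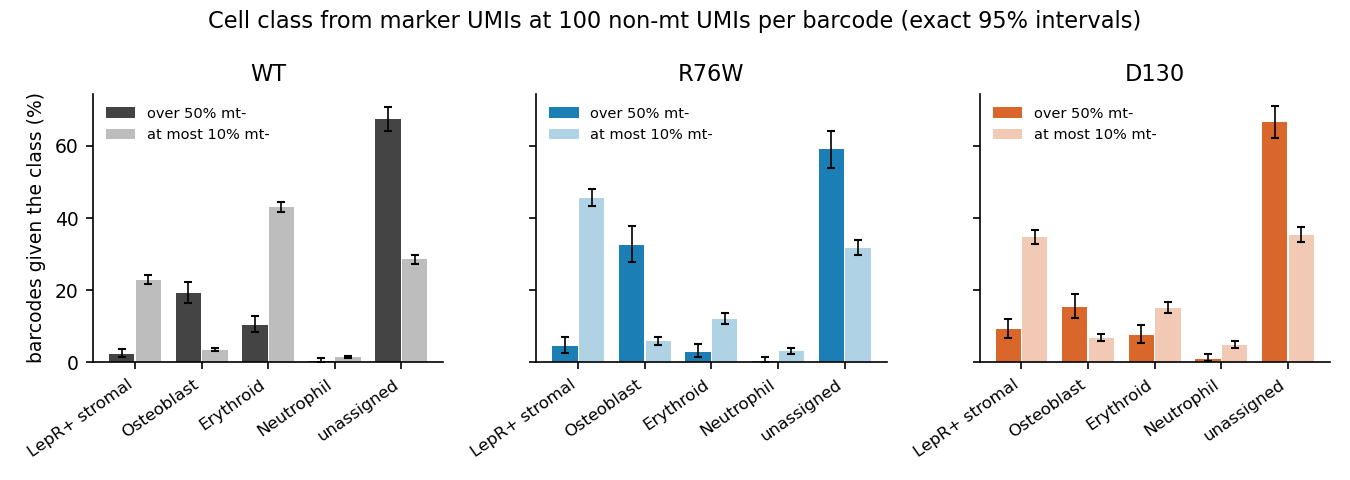
Share of barcodes given each class (y axis, percent, with exact 95% intervals) at 100 non-mitochondrial UMIs per barcode, for mitochondrial barcodes (full colour) and reference barcodes (pale), by library. Osteoblast calls are more frequent and LepR+ stromal and erythroid calls less frequent among mitochondrial barcodes in all 3 libraries.

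Thinning equalises UMIs and not the free RNA per droplet, which weighs more in a barcode of 100 UMIs. At 100 UMIs, Bglap was seen in 27.5%, 39.5% and 19.7% of mitochondrial barcodes and in 0.336%, 0.170% and 0.479% of LepR+ stromal reference barcodes. For Hbb-bs the thinned shares were 23.7%, 8.22% and 16.2% against 1.75%, 1.19% and 1.05%, the opposite order to that per droplet. Without thinning, 38.4%, 13.8% and 19.5% of mitochondrial barcodes held an Hbb-bs UMI, against 46.6%, 28.0% and 35.1% of LepR+ stromal reference barcodes. The 11 osteoblast markers together reached 5 UMIs, without thinning, in 11.5%, 13.8% and 5.09% of mitochondrial barcodes, against 8.27%, 3.4% and 13.9% of erythroid and 89.2%, 94.2% and 89.6% of LepR+ stromal reference barcodes. That share was above the erythroid one in WT and R76W, below it in D130, and below the LepR+ stromal one in each library. LepR+ stromal reference barcodes are not a class that lacks this list. They held means of 41.0, 58.9 and 46.0 UMIs of it in WT, R76W and D130, of which Ibsp gave 37.3, 53.3 and 41.6. The osteoblast, erythroid and LepR+ stromal calls are all given with the limit that free RNA weighs more at 100 UMIs. Their size also depended on how the class was called. When each thinned barcode was given to the most likely reference profile instead, osteoblast took 29.1%, 36.4% and 30.02%, erythroid 46.4%, 23.8% and 33.0% and LepR+ stromal 19.7%, 36.7% and 34.6%. By that call erythroid led in WT and LepR+ stromal in R76W and D130, and osteoblast led in none. It gave every thinned barcode a class, whereas the marker call left most without one, so the 2 sets of shares are not alike.

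Single mitochondrial barcodes of rarer classes were plain. In R76W, 1 barcode held 113 UMIs of Igkc, an immunoglobulin light chain of B cells, among 290 non-mitochondrial UMIs. Of all 121 Igkc UMIs in mitochondrial barcodes these were 113, so that the level of Igkc rests on that barcode. In WT, 1 barcode had 117 neutrophil marker UMIs of 274, led by S100a8, and in D130 another had 139 of 322, led by Camp. In D130, 1 barcode had 412 erythroid marker UMIs of 1143, and another held 42 UMIs of Pf4, a platelet factor of megakaryocytes. T or NK cell markers had 0, 1 and 4 UMIs in all. C1qa and C1qb, complement genes of macrophages, had 4, 3 and 11 and 4, 4 and 9 UMIs in mitochondrial barcodes, against 53, 3 and 83 and 49, 3 and 59 in the reference with its far larger totals.

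Gene levels in CPM were then compared over all genes, with the UMIs of mitochondrial and of reference barcodes summed in each library. edgeR's quasi-likelihood test, with library as a block and Benjamini-Hochberg adjustment, covered 13736 genes. It called 439 higher (3.2% of genes tested) and 478 lower (3.48%) in mitochondrial barcodes, 6.68% in either direction, of which 384 and 478 went the same way in all 3 libraries. The median log2 difference over all genes was -0.20. With library size alone in place of TMM scaling the median was -0.50 and the counts were 324 higher and 1513 lower, and with DESeq2 they were 395 and 125. Without WT, R76W or D130 they were 255 and 301, 262 and 222, and 228 and 161. Every gene was given the spread of genes of like level, borrowed across genes, and since the 3 libraries are of different genotypes, this is the spread of the within-library difference over genotypes.

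Of the 8 named genes with the largest rise, 7 had at most 741 UMIs over the mitochondrial barcodes of the 3 libraries, and Lars2, described further on, had 14695. Pde1c, a calmodulin-dependent phosphodiesterase, stood at 483, 1661 and 1683 CPM in WT, R76W and D130, against 4.88, 11.9 and 8.50 in the reference, and the groups did not overlap (log2 difference 7.46 ± 0.34 SE, edgeR adjusted p = 2.11e-103). Lrp1b, a large receptor of the LDL receptor family, stood at 508, 985 and 1019 CPM against 5.77, 9.95 and 7.37. Ntm, a neural adhesion protein, stood at 256, 518 and 507 CPM against 6.34, 8.42 and 6.60. Grik1, a kainate glutamate receptor, Nkain2, a membrane protein, and Slc17a9, a nucleotide transporter, had log2 differences of 7.19, 6.96 and 6.09. Igkc was also among the 8 largest.

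Per barcode, the 7 genes of low counts lay on both sides of the reference. Pde1c had 0.0753, 0.227 and 0.196 UMIs per mitochondrial barcode in WT, R76W and D130, and 0.0762, 0.163 and 0.158 per reference barcode, although the median of non-mitochondrial UMIs was 74, 56 and 61 against 8636, 8665 and 11210. Lrp1b had 0.0792, 0.134 and 0.118 against 0.0901, 0.136 and 0.137. The ratio of UMIs per mitochondrial barcode to those per reference barcode was 0.404, 0.614 and 0.482 for Ntm, 0.48, 0.703 and 0.29 for Slc17a9 and 0.123, 4.04 and 0.0288 for Igkc, so that these lay below the reference save Igkc in R76W. Over the 1572 genes with at least 50 UMIs in mitochondrial barcodes, the median ratio of UMIs per barcode was 0.00758, 0.00653 and 0.00476. In all 3 libraries the ratio was at least 0.5 for 6 genes, Gm20594, Gm50306, Grik1, Lrp1b, Nkain2 and Pde1c. From barcodes under 10% to those over 95% mt-, Pde1c stayed between 0.0568 and 0.172 UMIs per barcode in WT, 0.158 and 0.409 in R76W and 0.158 and 0.261 in D130. Over the same range Malat1 went from 85.0 to 0.0781 in WT. Gene span also differed. The median span was 71.6 kb for the 439 genes that rose, 17.6 kb for the 478 that fell and 24.3 kb for all 13736 tested, and 41.0%, 23.8% and 14.4% spanned over 100 kb.

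A second set of genes rose in CPM at high counts. None of them was among the 6 genes whose UMIs per mitochondrial barcode were at least 0.5 times those per reference barcode in all 3 libraries. Cmss1, a nucleolar protein gene, stood at 46994, 54950 and 44380 CPM in WT, R76W and D130, against 886, 1780 and 1264 in the reference. Lars2, the mitochondrial leucyl-tRNA synthetase encoded in the nucleus, stood at 24991, 23257 and 19545 CPM against 398, 812 and 582 (log2 difference 5.62 ± 0.53 SE, edgeR adjusted p = 5.89e-24). Gphn, the synaptic scaffold gephyrin, Camk1d, a calmodulin-dependent kinase, and Cdk8, a kinase of the Mediator complex, had log2 differences of 5.26, 4.41 and 4.75. Together with Gm42418 these genes peaked at different points of the mt- share. Gm42418 was highest at 50 to 75% mt- in each library, with 269049, 346288 and 259386 CPM, and lower over 95%, with 217603, 183969 and 153300. Pde1c was highest over 95% mt- in each library, with 1682, 4032 and 3700.5 CPM.

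**Figure D5:**
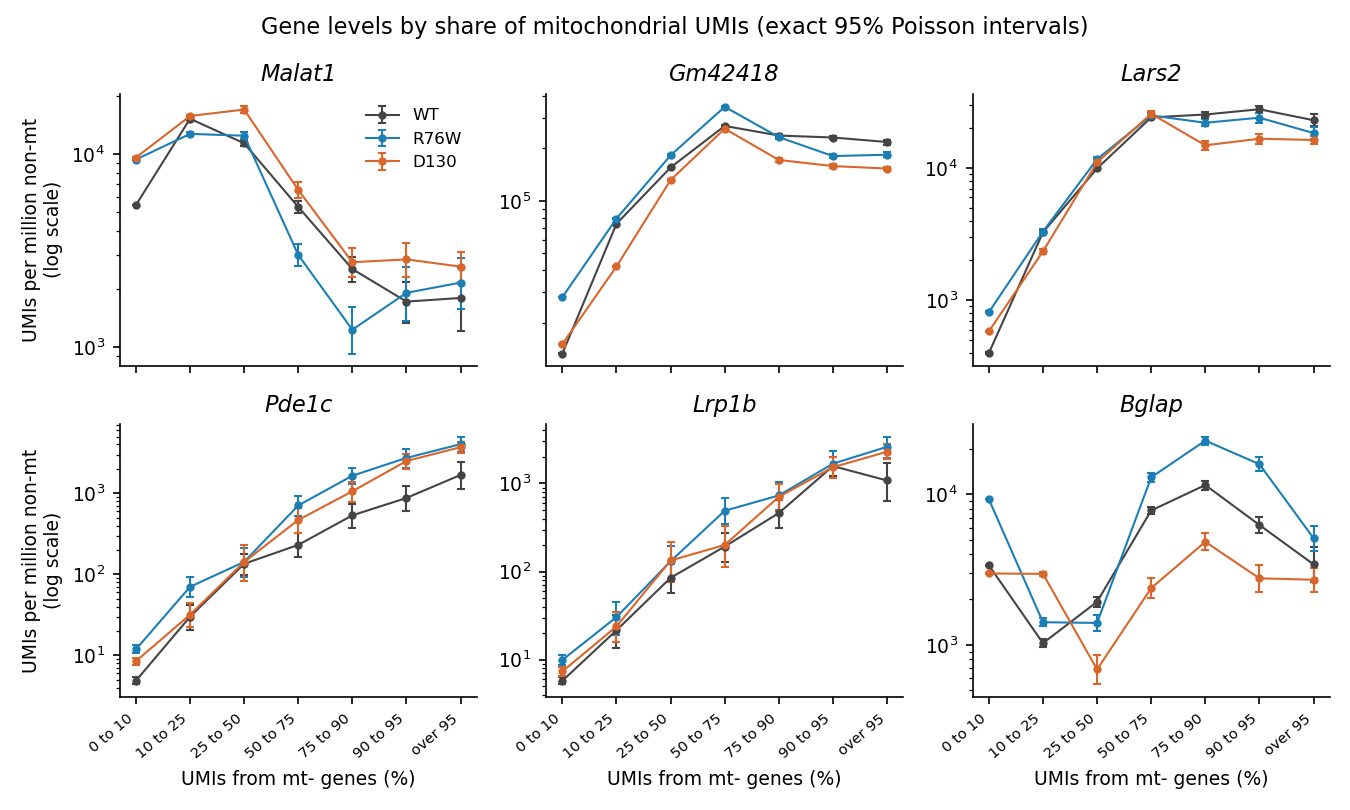
Level of Malat1, Gm42418, Lars2, Pde1c, Lrp1b and Bglap in CPM (y axis, log scale, with exact 95% Poisson intervals) by bin of the mt- share (x axis, percent), for the 3 libraries. Pde1c and Lrp1b are far higher over 95% mt- than under 10%, Gm42418 peaks at 50 to 75%, Malat1 falls above 50%, and Bglap peaks at 75 to 90%.

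Malat1, a long non-coding RNA that stays in the nucleus, marked the other side over all mitochondrial barcodes. It stood at 3926, 2267 and 4129 CPM in the mitochondrial barcodes of WT, R76W and D130 and at 5448, 9378 and 9594 in the reference, so that the groups did not overlap. The log2 difference was -0.92 ± 0.37 (SE), and it missed the threshold (edgeR adjusted p = 0.13). Per barcode, 3.49%, 1.64% and 2.00% of mitochondrial barcodes held at least 5 Malat1 UMIs, against 97.0%, 95.8% and 97.4% of LepR+ stromal and 70.6%, 74.6% and 90.5% of erythroid reference barcodes. Malat1 CPM was highest in barcodes of 10 to 25% mt- in WT and R76W, at 15236.5 and 12726, and of 25 to 50% mt- in D130, at 17006, and was under the reference level in each bin above 50% in all 3 libraries. Of 5 nuclear-retained RNAs tested, 0 passed with edgeR or with DESeq2, and 1, Malat1, had an unadjusted p under 0.05. The lower level did not hold among erythroid-called barcodes, described further on.

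Of the 8 named genes with the largest fall, 4 were histone genes and 2 were genes of myeloid cells. Hist1h2ap, a replication-dependent histone of dividing cells, stood at 980, 335 and 817 CPM in WT, R76W and D130 against 4166, 1529 and 3654 (log2 difference -1.83 ± 0.32 SE, edgeR adjusted p = 1.03e-06). Hist1h4d, Hist1h2ae and Hist1h1b had log2 differences of -1.73, -1.54 and -1.51. S100a8 and Lyz2, genes of granulocytes and monocytes, had -1.68 and -1.64. Lyz2 is 1 of 10 monocyte or macrophage markers, of which 3 rose and 2 fell. Plpp3, a lipid phosphatase, and Adcy2, an adenylate cyclase, had -1.77 and -1.69. Being lower in each of the 3 libraries was a condition for naming these 8 genes.

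The immediate early genes, transcription factors and feedback regulators that are switched on within minutes of a stimulus, were lower together. Of 14 tested, 10 fell and none rose, with a median log2 difference of -1.46 against -0.20 for all genes. Fos stood at 39.0, 158 and 123 CPM against 219.5, 597 and 282, and Junb at 21.3, 25.3 and 73.8 against 142, 320 and 217. Against reference barcodes of at most 1500 UMIs, a comparison chosen after the data were seen, 6 could be tested, 2 fell and the median was -0.41.

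Of 15 cell cycle genes 8 fell over all mitochondrial barcodes, among them Ccnb1 (-1.63) and Ube2c (-1.36), and 1 rose. The one that rose was Mki67, a marker of dividing cells, at 1661, 1212 and 576 CPM against 479, 386 and 415. Without WT, R76W or D130, 2, 4 and 3 of the 15 fell.

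Genes of the ribosome and of respiration were called less firmly. Over all 13736 genes tested, 3.2% were called higher and 3.48% lower, and the list counts are to be read beside these shares. Of 81 cytosolic ribosomal protein genes Rps2 fell and Rpl39l rose, with a median of -0.53 (68 fell with library size alone), and their summed level was 127074, 100472 and 138792 CPM against 270293, 169203 and 218809. Of 77 nuclear oxidative phosphorylation genes 11 fell and none rose, with a median of -0.55 (58 fell with library size alone, 1 with DESeq2, and 2 with any 1 library left out), and of 78 mitochondrial ribosomal protein genes 12 fell and none rose (1 and 4 fell without WT or D130, and 3 with DESeq2). Of 10 heat shock genes Hspd1 and Hspe1, mitochondrial chaperones, fell. Of 8 integrated stress response, 9 mitophagy and 10 glycolysis genes, 0 passed with edgeR or DESeq2, and 2 of each had an unadjusted p under 0.05. In the p53 and apoptosis list 1 of 11 rose, Mdm2, the ligase that degrades p53, at 63.9, 94.7 and 98.4 CPM against 26.8, 42.5 and 32.7. This single call is not read as a result for the list.

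The marker lists did not move alike, beside 3.2% of all genes called higher and 3.48% lower. Of the 12 LepR+ stromal markers 9 fell and none rose, with a median log2 difference of -1.0, among them Ebf3 (-1.42), a transcription factor of these cells, and Kitl (-1.07), stem cell factor. Of the 11 osteoblast markers Car3 (1.64), a carbonic anhydrase, Sp7 (1.26) and Bglap3 (0.90) rose and Ibsp (-1.04) fell, with a median of 0.73. These rises are in CPM. Per barcode, Sp7 was at 0.313, 0.76 and 0.312 times the mean of erythroid reference barcodes in WT, R76W and D130, and Car3 at 0.903, 1.19 and 0.334 times. Bglap3 was at 1.75 times in WT and 0.623 times in D130, and erythroid reference barcodes of R76W had 0 UMIs of it. Of the 10 neutrophil markers 6 fell, among them S100a9 (-1.46). Of the 10 monocyte or macrophage markers 3 rose and 2 fell, with a median of 0.60. Their summed level was 117, 328 and 487 CPM against 241, 772 and 1435. Of 5 endothelial and 5 megakaryocyte markers tested, 2 of each rose and none fell, with medians of 1.20 and 3.41. They rest on few UMIs in mitochondrial barcodes, 9, 12 and 18 for endothelial and 8, 66 and 99 for megakaryocyte markers. Of these megakaryocyte marker UMIs, a single barcode held 3 in WT, 30 in R76W and 53 in D130. Of the 4 globin genes, Hba-a1 (-1.15) and Hbb-bt (-1.36) fell (neither without R76W or without D130), and Hbb-bs had 4437, 1326 and 3332 CPM against 13990, 4829 and 4852 (log2 difference -1.03 ± 0.37 SE, edgeR adjusted p = 0.074). Of 20 genes for secreted and membrane proteins of stroma 4 fell (6, 0 and 1 without WT, R76W or D130), among them Igfbp5 (-1.22), an IGF-binding protein, and Vcam1 (-1.12), an adhesion protein of stroma. Cxcl12 stood at 1089.7, 1547 and 3204 CPM against 2348, 6150 and 3902 (log2 difference -0.80, edgeR adjusted p = 0.14). Bglap stood at 8245, 15048 and 3101 CPM against 3375, 9277 and 2978 (log2 difference 1.01 ± 0.39 SE, edgeR adjusted p = 0.10), and Col1a1 at 4412, 7382 and 5754 against 4528, 11657 and 10001 (log2 difference -0.17, 0.67 against reference barcodes of at most 1500 UMIs). Neither passed the test. Against those shallow barcodes Bglap had a log2 difference of 2.19 and passed, as it did with DESeq2 against all reference barcodes.

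Osteoblast-called mitochondrial barcodes (259 in WT, 191 in R76W and 157 in D130, called on all of their UMIs) were then compared with osteoblast-called reference barcodes (197, 107 and 176). Marker genes were left out of totals and tests. The call did not make the 2 groups alike in osteoblast RNA. Col1a1, itself a calling marker, stood at 14069, 23570 and 14848 CPM in the called mitochondrial barcodes of WT, R76W and D130. In the called reference barcodes it stood at 88382, 101803 and 86052 CPM. How far this difference in content accounts for the results below was not tested. Of 8315 genes, edgeR's quasi-likelihood test called 51 higher (0.613%) and 302 lower (3.63%), or 4.25% in either direction. Without R76W these were 28 and 179, without D130 the lower genes were 174, and with DESeq2 the counts were 43 and 93. Cmss1 stood at 65531, 71312 and 92330 CPM against 1356, 1664 and 1343, and Lars2 at 31653, 23019 and 34391 against 603, 734 and 686. Col1a2, the second chain of bone collagen, stood at 11121, 16098 and 8935 CPM against 79146, 101990 and 79552, and the groups did not overlap (log2 difference -2.77 ± 0.16 SE, edgeR adjusted p = 4.43e-60). Sparc, osteonectin, stood at 5862, 10592 and 9342.5 CPM against 46486, 49516 and 40751. Serpinf1, Serpinh1 (a collagen chaperone), Cd63 (a tetraspanin), Col11a1, Col5a2 and Spp1 (osteopontin) had log2 differences of -2.61, -2.46, -2.14, -2.13, -2.07 and -1.92. Of the 15 stromal secreted and membrane protein genes tested 11 fell (7 with DESeq2) and 1 rose, Apoe (2.04), with a median of -1.87 against -0.50 for all genes. Against osteoblast-called reference barcodes of at most 1500 UMIs only 251 genes could be tested, 11 were higher and 12 lower, and 2 of 6 genes of this list fell.

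In these osteoblast-called barcodes, 12 of 14 immediate early genes fell and none rose, with a median of -3.97 (-3.72 with Ier3, which had no UMI in these barcodes, at the bound that 3 UMIs over the 3 libraries allow). Fos had 1, 8 and 2 UMIs, or 14.7, 210 and 50.9 CPM, against 1311, 2318 and 539 CPM. Malat1 also fell here, at 4890, 1757 and 4938 CPM against 12315, 11057 and 12203 (log2 difference -1.57 ± 0.16 SE, edgeR adjusted p = 1.96e-20), though not against the shallow reference barcodes (0.21). Of 81 cytosolic ribosomal protein genes Rpl27a fell and none rose, with a median of -0.09 (0.17 with DESeq2), and their summed level was 132387, 162000 and 150320 CPM against 182134, 166031 and 172649. Cell cycle genes went the other way from the comparison over all mitochondrial barcodes. Of 14 tested, 3 rose and none fell, beside 0.613% of all genes called higher, with a median of 0.73 against -0.50 for all genes. They rest on 97, 32 and 51 UMIs in the osteoblast-called mitochondrial barcodes of WT, R76W and D130. Free RNA of other classes weighs more in the shallow barcodes, and its part in these differences was not tested.

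Erythroid-called mitochondrial barcodes (327, 74 and 120) were compared in the same way. Of 9694 genes, the edgeR test called 137 higher (1.41%) and 882 lower (9.1%), or 10.5% in either direction. With library size alone these were 254 and 486. Without WT, R76W or D130, 54, 73 and 80 were higher, and without WT or D130, 474 and 496 were lower. Pde1c, Lrp1b, Gphn, Lars2, Cmss1, Taco1 and Cdk8 were among the genes with the largest rise, and 36 of the 51 genes higher among osteoblast-called barcodes (70.6%) were among the 137 (26.3%). Lower in both classes were 11 genes, 3.64% of the 302 and 1.25% of the 882. Nuclear-retained RNA was not lower in this class. The 4 such RNAs tested summed to 4575, 4300 and 4250 CPM in WT, R76W and D130, against 2858, 2770 and 2600. Their median log2 difference was 0.53, and 0 passed. Genes of the ribosome and of respiration fell in this class. Of 80 cytosolic ribosomal protein genes 78 fell, with a median of -1.96 against -0.46 for all genes, and their summed level was 138410, 60298 and 133228 CPM against 330557, 299988 and 324795. Of 75 nuclear oxidative phosphorylation genes 68 fell, with a median of -2.02. Without D130, 26 of 80 ribosomal protein genes fell, and against erythroid-called reference barcodes of at most 1500 UMIs 13 of 79 fell and 0 of 49 oxidative phosphorylation genes did.

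Bone and stromal RNA was present in these erythroid-called barcodes. Col1a2 stood at 454, 416 and 1228 CPM, against 41.3, 27.5 and 82.0 in erythroid reference barcodes (log2 difference 3.32 ± 0.33 SE, edgeR adjusted p = 6.23e-21). Sparc stood at 252, 312 and 881 CPM against 56.7, 25.9 and 53.1. Of 14 stromal secreted and membrane protein genes 8 rose and none fell (5, 5 and 2 rose without WT, R76W or D130). Mki67 rose here too, at 3126, 3329 and 2330 CPM against 619, 882 and 730, and 12 of 15 cell cycle genes fell (8 and 6 without WT or D130). Over all mitochondrial barcodes, Hbb-bs UMIs per droplet did not exceed those of LepR+ stromal reference barcodes. For the erythroid-called ones alone, which were chosen on erythroid markers, that comparison was not made. The part of free RNA in the erythroid calls was not tested.

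Between libraries, with no test possible, the mitochondrial barcodes of R76W held the most osteoblast RNA. The 11 osteoblast markers summed to 16689 CPM in WT (interval 16215 to 17173), 30689 in R76W and 11581 in D130, and the reference barcodes to 10640, 28768 and 16425. Their level was higher than the reference in WT and R76W and lower in D130. As a mean over barcodes, each of equal weight, it was 14758, 26493 and 13046 CPM against 9471, 15970 and 12237, higher in all 3. LepR+ stromal markers summed to 2921, 4003 and 7521 CPM, with D130 highest, against 6282, 16482 and 10395 in the reference. Erythroid markers summed to 12806, 5532 and 10666 CPM against 36044, 15007 and 15914. Levels of the LepR+ stromal and erythroid lists were lower than the reference in all 3 libraries.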

How the data were processed

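The authors deposited, per the file headers, matrices of UMI counts from Cell Ranger 7.0.1. Seurat and mm10 are also named in the submitters' processing notes. The libraries were 10x Genomics 3′ v3, per the labels, and filters before deposit are not given in the sources used here. Genes under 1 symbol were summed (32245 symbols, 13 of them mt-). No doublets were called. The barcodes and gene lists were chosen with earlier results of these data known.

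Work was done in Python 3.11.15 with numpy 2.4.6, scipy 1.17.1, pandas 2.3.3 and matplotlib 3.10.9. Non-mitochondrial UMIs were summed per library over mitochondrial and reference barcodes. They were tested with edgeR 4.0.16 in R 4.3.3 (TMM, filterByExpr, quasi-likelihood, adjusted p under 0.05), with library as a block because both sums of a pair come from 1 library. DESeq2 1.42.0 was an alternative. The edgeR step was tested on simulated data. Named genes were those of the lists and, per fit, the 8 highest and 8 lowest with an adjusted p under 0.05, at least 50 UMIs in mitochondrial barcodes, the same direction in all 3 libraries and a symbol other than Gm or Rik. One gene that this rule picks is not reported here. Nothing in the labels says that the libraries are replicates of 1 group. Alternatives were library size alone, no filter, no block, each library left out, limits of 40% and 75% mt-, at least 200 non-mitochondrial UMIs, a reference of at most 5% mt-, 300 UMIs or no thinning, and a likelihood call. Reference barcodes of at most 1500 UMIs, a robust spread and leaving out genes that overlap ribosomal RNA were alternatives chosen after seeing the data. Gene positions, spans and transcripts came from GENCODE M21 (GRCm38), and transcripts were aligned with blastn 2.17.0.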

Additional observations from a re-analysis of the deposited data

Results flagged for a closer look

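The level of the 11 osteoblast markers in mitochondrial barcodes differed from the reference in opposite directions between libraries. The log2 ratio of summed CPM was 0.65 in WT, 0.0933 in R76W and -0.50 in D130. With 1 library per genotype this difference was not tested. As a mean over barcodes the level was higher in mitochondrial barcodes in each library, including D130 with 13046 CPM against 12237.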

How the results depend on the processing

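The 439 higher and 478 lower genes over all mitochondrial barcodes became 251 and 53 with no library block, that is, without pairing each library's 2 sums. Higher genes were 226 with at least 200 non-mitochondrial UMIs. Lower genes were 1513 with library size alone, 125 with DESeq2, 311 with no filter, 277 over 75% mt- and 200 (of 2550 tested) against shallow reference barcodes. Leaving out 1 library gave 228 to 262 higher and 161 to 301 lower. Among osteoblast-called barcodes, the 51 higher genes were 33 over 75% mt-, 27 with at least 200 UMIs and 11 against the shallow reference, and the 302 lower were 93 with DESeq2, 463 over 75% mt- and 12 against the shallow reference, with 28 to 44 and 174 to 282 on leaving out 1 library. Among erythroid-called barcodes, the 137 higher were 254 with library size alone, 44 over 75% mt- and 75 with at least 200 UMIs, and the 882 lower were 486, 463 with DESeq2, 223 over 75% mt- and 26 against the shallow reference, with 54 to 80 and 474 to 629 on leaving out 1 library. The shallow reference, the fit without Gm42418 and AY036118 and the robust spread were chosen after seeing the data. The cause of these shifts was not tested.

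Class shares also moved. Osteoblast was 14.3% in WT, 16.5% in R76W and 8.98% in D130 without thinning, 29.1% in WT and 30.02% in D130 by likelihood, and 29.5% and 23.6% at 300 UMIs. Erythroid was 18.1% in WT and 6.37% in R76W without thinning, 13.0% in WT over 75% mt-, 46.4%, 23.8% and 33.0% by likelihood and 25.6%, 14.9% and 19.1% at 300 UMIs. LepR+ stromal was 0.767% in WT over 75% mt-, 4.17% in D130 without thinning, 19.7%, 36.7% and 34.6% by likelihood and 13.6% in D130 at 300 UMIs. Neutrophil was 0 in WT and R76W at 300 UMIs. Col1a1 ranged from -0.35 to 0.0039 on leaving out 1 library, with the sign changed without D130, and changed sign against the shallow reference (0.67), Malat1 of osteoblast-called barcodes against the shallow reference (0.21), and Malat1 of erythroid-called barcodes over 75% mt- (-1.27). The median of non-mitochondrial UMIs was 56 to 74 in mitochondrial barcodes, and those under 100 were left out of the thinned calls.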
